A study of Mus musculus with 12 samples.

Results

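The lipid droplet and fatty acid uptake genes described here are 10 genes picked by symbol: Plin2, Plin4, Plin5, Cidec, Cideb, G0s2, Pnpla2, Cd36, Fabp1 and Fabp4. All 10 were found among the 24296 gene symbols of the deposited table, through 33 transcripts, and all 10 passed the filter on low values that left 13158 genes for testing. The livers came from male C57/BL6N mice in 4 groups of 3. The control group had no carbon tetrachloride (CCl4), and the labels do not say what it was injected with instead. The model group had CCl4 diluted in olive oil by intraperitoneal injection, 2 injections per week for 8 weeks, which causes repeated hepatocyte injury and scarring. The stated 5 mL/kg body weight is read here as the volume of this mixture, of which CCl4 was the smaller part. The silibinin and phloridzin groups had the same CCl4 course with the drug from week 5 on, so all 9 livers outside the control group were injured. Silibinin is a flavonolignan of milk thistle, and phloridzin is a plant glucoside that blocks sodium-glucose cotransporters. The study's text names its high-dose phloridzin group as the sequenced one, and the labels give no dose for these samples. RNA-seq of whole liver gave 83.8 to 110.7 M fragments per liver, read from the step size of low values. Expression is in FPKM, fragments per kilobase of transcript and per M fragments, summed over a gene's transcripts. The labels do not state that each sample is a single mouse, so p-values measure the spread between these samples.

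Hepatocytes store surplus fatty acids as triglyceride in cytosolic lipid droplets. Perilipins coat the droplet, CIDE proteins sit where droplets touch and drive lipid transfer between them, and adipose triglyceride lipase starts the breakdown of the stored triglyceride. CD36 takes up long-chain fatty acids at the cell surface, and fatty acid binding proteins carry them inside the cell. Many of these genes are known targets of the peroxisome proliferator-activated receptors (PPARs), PPAR alpha in hepatocytes and PPAR gamma in adipocytes and macrophages.

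The question of the first comparison was what CCl4 did to these genes, and of the next 2 whether the drug groups differed from the injured model group. In the model livers Plin5 was lower and Cidec, Cd36 and Fabp4 were higher than in the control livers. In both drug groups Plin5 was higher and Cidec lower than in the model group, with means near those of control. Cd36 and Fabp4 were not DE between either drug group and the model group. A gene is called differentially expressed (DE) here when its Benjamini-Hochberg adjusted p over all genes tested is under 0.05 and its fold change exceeds 1 in either direction on log2 values, on the scale log2(FPKM + 1), which understates changes of low genes. The 10 genes, and the gene and marker lists used below, were chosen with earlier results of these data known. Their counts beside the shares of all genes are therefore descriptions and no test of an excess. Against control, 3 of 10 members were DE higher in the model group, where 9.42% of all genes tested were, and 1 of 10 was DE lower, where 1.08% were. For silibinin against model, 1 of 10 was DE higher and 1 of 10 DE lower, beside 0.745% and 3.25% of all genes. For phloridzin against model the counts were again 1 and 1 of 10, beside 0.600% and 2.92%. The model livers stand in all 3 of these comparisons, so a gene at an extreme level in them moves opposite ways against control and against each drug.

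**Figure D1:**
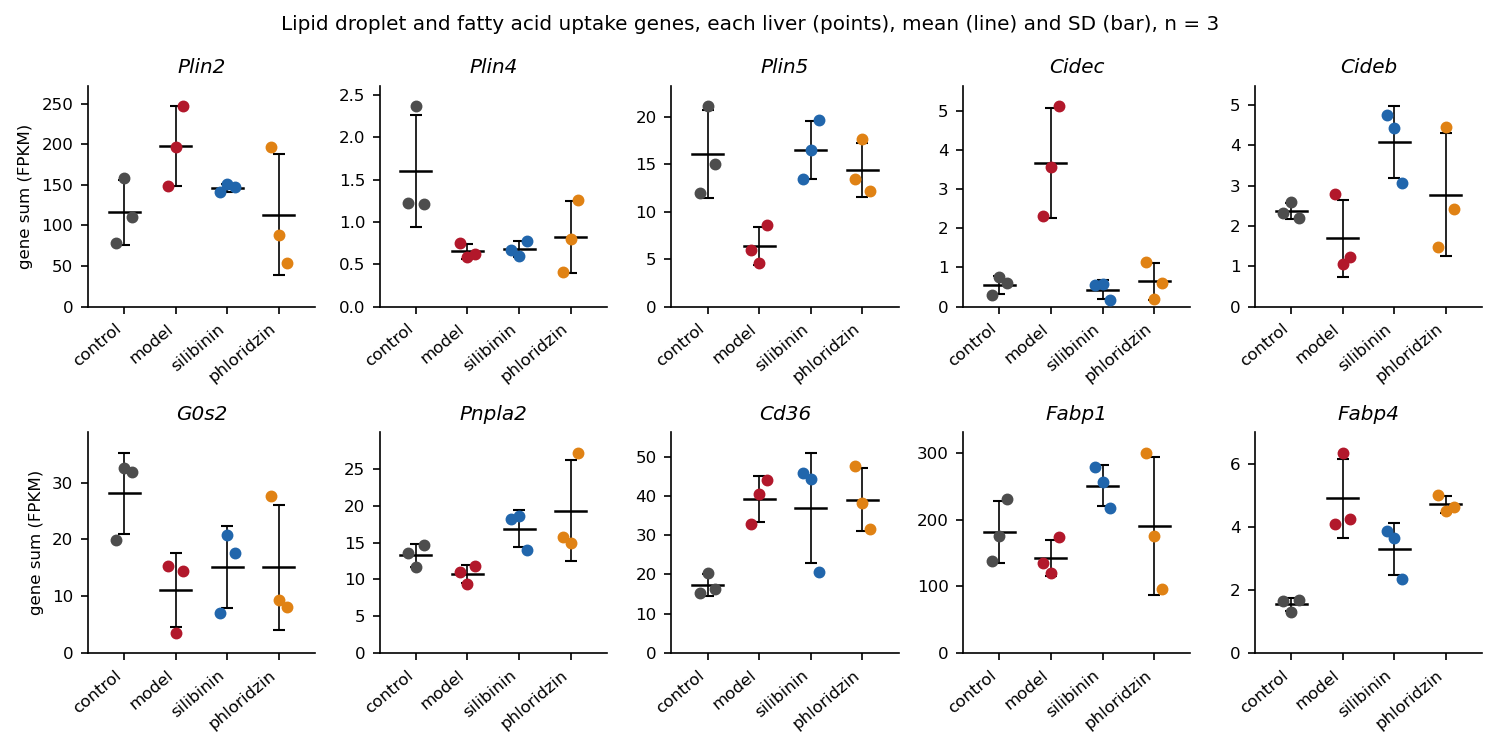
Summed FPKM of the 10 genes in each liver, 1 panel per gene with its own axis from 0; points are livers, lines are group means and bars are SDs over 3 livers. The 3 model livers lie below all other livers for Plin5 and above all others for Cidec, while all 3 control livers lie below every other liver for Cd36 and Fabp4.

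The choice of scale matters for the size of these differences. FPKM puts every library on the same total of fragments, and on that scale the median gene was 0.34 higher (log2) in the model than in the control group. With median-ratio scaling between livers that median was -0.01. The DE genes of model against control were 1240 higher and 142 lower (89.7% higher) in FPKM but 501 and 481 (51.0% higher) after scaling. For silibinin against model they were 98 and 428 (18.6% higher) in FPKM and 191 and 239 (44.4%) after scaling, and for phloridzin against model 79 and 384 (17.1%) and 140 and 240 (36.8%). Against control, silibinin had 229 and 32 (87.7%) in FPKM and 145 and 57 (71.8%) after scaling, and phloridzin 360 and 38 (90.5%) and 181 and 65 (73.6%). Of the 10 members, 1 was DE higher and 2 were DE lower in model against control after scaling, Cidec, Plin5 and G0s2. Plin5 and Cidec were DE in the same directions on both scales. Cd36 and Fabp4, higher in the model group in FPKM, were not DE after scaling, at log2 fold changes of 0.68 (adjusted p = 0.068) and 0.85 (adjusted p = 0.0058, under the fold cutoff).

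Ordered by level, Fabp1 and Plin2 led in all 4 groups and the other 8 genes were far lower. In the control livers the means were 182 FPKM for Fabp1 and 116 for Plin2, whose ranges overlapped, then 28.1 for G0s2, 17.3 for Cd36, 16.1 for Plin5 and 13.3 for Pnpla2. G0s2, Cd36 and Plin5 overlapped there, as did Plin5 and Pnpla2. Cideb (2.37), Plin4 (1.60), Fabp4 (1.55) and Cidec (0.550) closed the order, and the range of Plin4 overlapped those of Cideb and Fabp4. In the model livers the order was Plin2, Fabp1, Cd36, G0s2, Pnpla2, Plin5, Fabp4, Cidec, Cideb and Plin4, so Cidec moved from the last place to the eighth and Plin4 took the last.

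The perilipins behaved differently from one another. Plin5, the perilipin of oxidative tissues that tethers droplets to mitochondria, lies on the minus strand at chr17:56111601-56117596 (GRCm38), beside Plin4, and 99.9% of its level came from the coding transcript Plin5-202. Plin5 was at 12.01, 21.1 and 15.1 FPKM in control livers 1 to 3, at 6.00, 4.62 and 8.56 in the model livers, at 13.5, 16.5 and 19.6 with silibinin and at 13.4, 17.6 and 12.2 with phloridzin. Every model liver was below every liver of the other 3 groups, and those 3 groups overlapped. The model mean was 0.398 times the control mean, a log2 fold change of -1.21 (SE 0.25, 95% interval -1.76 to -0.66, adjusted p = 0.0044). Silibinin livers stood at 2.58 times the model mean, with a log2 fold change of 1.26 (interval 0.71 to 1.81, adjusted p = 0.0082). Phloridzin livers stood at 2.26 times, 1.08 on the log2 scale (interval 0.53 to 1.63, adjusted p = 0.018). Compared with control the fold changes were 0.06 (interval -0.49 to 0.61) for silibinin and -0.13 (-0.68 to 0.42) for phloridzin. The phloridzin call is the less firm: it was lost in a fit of these 2 groups alone (adjusted p = 0.059) and without model liver 1 (0.056), model liver 2 (0.069) or phloridzin liver 2 (0.074). The model call was kept with each liver left out, only just without control liver 2 (adjusted p = 0.018).

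Plin2, the most abundant droplet coat protein of liver (chr4:86648386-86670060, minus strand), was at 78.3, 159 and 111 FPKM in the control livers, 148, 197 and 247 in the model livers, 141, 151 and 147 with silibinin and 196, 88.6 and 53.6 with phloridzin. Model and control overlapped, and so did phloridzin and model, because phloridzin liver 1 was as high as the model livers while livers 2 and 3 were below all of them. No comparison of Plin2 passed the test: the log2 fold changes were 0.79 (adjusted p = 0.16) for model against control, -0.40 (0.57) for silibinin against model and -0.97 (0.15) for phloridzin against model. Without phloridzin liver 1 the last value was -1.47 with an adjusted p of 0.014. Part of the highest value came from a short noncoding transcript, Plin2-204, at 51.6 FPKM in model liver 3 and at no more than 1.96 in any other liver. The main coding transcript Plin2-201, which made up 82.8% of the gene, was at 124, 169 and 169 FPKM in the model livers.

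Plin4, which is best known from fat cells and muscle (chr17:56100591-56109803, minus strand, overlapping Hdgfl2 on the other strand), was scarce. It was at 1.23, 2.37 and 1.22 FPKM in the control livers, 0.756, 0.586 and 0.623 in the model livers, 0.664, 0.594 and 0.775 with silibinin and 0.413, 0.801 and 1.25 with phloridzin. All model and silibinin livers were below all control livers, and phloridzin liver 3 reached the lower control values. The model to control log2 fold change of -0.63 (SE 0.20, adjusted p = 0.031) did not reach the fold cutoff on the main scale. With a pseudocount of 0.1 it was -1.12 (adjusted p = 0.037) and with limma voom on recovered fragments -1.23 (0.034), both past it. Counting adjusted p alone, 5 of 10 members differed between model and control, beside 34.9% of all genes. Against the model group Plin4 had log2 fold changes of 0.02 with silibinin and 0.12 with phloridzin, neither past the test.

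Of the CIDE genes, Cidec was DE and Cideb was not. Cidec (chr6:113424634-113435760, minus strand), also known as fat-specific protein 27, builds large droplets and is induced in fatty liver. It was at 0.302, 0.755 and 0.594 FPKM in the control livers, 2.32, 3.57 and 5.12 in the model livers, 0.552, 0.586 and 0.164 with silibinin and 1.14, 0.190 and 0.610 with phloridzin. Every model liver was at least as high as 2.32 FPKM and no other liver was above 1.14. These low values rested on 27 to 504 recovered fragments per liver, 188 or more in each model liver. The model mean was 6.67 times the control mean, with a log2 fold change of 1.56 (SE 0.26, interval 0.98 to 2.14, adjusted p = 0.0016). Against the model group Cidec was at 0.118 times with silibinin (log2 fold change -1.67, interval -2.25 to -1.09, adjusted p = 0.0026) and 0.176 times with phloridzin (-1.50, interval -2.08 to -0.92, adjusted p = 0.0049). Against control the values were -0.12 (interval -0.70 to 0.46) and 0.06 (interval -0.52 to 0.64). Cidec was DE in these first 3 comparisons under every alternative run for it, leaving out each liver included.

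Cidec has 2 main start sites, and its transcripts differed in how far they followed the groups. Cidec-203, 59.2% of the gene on average, was at 0.109, 0.388 and 0 FPKM in the control livers, 1.77, 2.36 and 3.77 in the model livers, 0.873, 0 and 0.155 with phloridzin and listed at 0 in all 3 silibinin livers. Cidec-202, which starts further upstream, was at 0.193, 0.220 and 0.302 in the control livers and 0.486, 0.951 and 1.17 in the model livers. With silibinin Cidec-202 was at 0.452, 0.346 and 0.164 and with phloridzin at 0.239, 0.139 and 0.266. Both transcripts were thus higher in each model liver than in any other liver, and transcript levels were not tested on their own.

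The promoters of genes that moved are shown because Plin5 and Cidec moved in opposite directions and Cidec used both of its starts. They come from RefSeq (GRCm38.p6), 300 bases each with 250 before the start, read 5′ to 3′ on the gene's strand, and 9 of the 10 members had an entry. Capitals mark AGGTCA, the hexamer bound by nuclear receptors such as the PPARs, and TGAGTCA, the AP-1 site, each searched on both strands (TGACCT and TGACTCA), and the marks do not overlap. AGGTCA was in 16.3% of all 32851 promoters and TGAGTCA in 5.20%. An exact repeat of that hexamer after 1 base, a full PPAR site without mismatches, was in 0.0396% of all promoters. None of the 11 promoters of members had it. Imperfect repeats were not searched for, so the members may still have PPAR sites. AGGTCA was present for Plin2, Plin5, Cd36 and Fabp1, and TGAGTCA for Cidec at the start of Cidec-203, for Cideb and for a Plin5 entry further upstream that is not shown, not for the one at the start of Plin5-202. A match describes letters only. The sequences shown are all on the minus strand. They are Plin5 at the start of Plin5-202 (chr17:56117249-56117548), Cidec at the start of Cidec-203 (chr6:113434715-113435014) and Cidec at the start of Cidec-202 (chr6:113435711-113436010). Cd36 (chr5:17835847-17836146) is shown as a gene that was not DE between either drug group and the model group. None of the 6 Cd36 transcripts starts at the start of that entry.
Plin5-202: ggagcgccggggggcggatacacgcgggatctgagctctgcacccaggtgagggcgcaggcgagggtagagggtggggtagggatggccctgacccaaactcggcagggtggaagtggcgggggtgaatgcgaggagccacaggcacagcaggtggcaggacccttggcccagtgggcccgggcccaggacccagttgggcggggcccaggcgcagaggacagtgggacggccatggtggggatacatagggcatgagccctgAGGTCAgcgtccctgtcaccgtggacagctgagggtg
Cidec-203: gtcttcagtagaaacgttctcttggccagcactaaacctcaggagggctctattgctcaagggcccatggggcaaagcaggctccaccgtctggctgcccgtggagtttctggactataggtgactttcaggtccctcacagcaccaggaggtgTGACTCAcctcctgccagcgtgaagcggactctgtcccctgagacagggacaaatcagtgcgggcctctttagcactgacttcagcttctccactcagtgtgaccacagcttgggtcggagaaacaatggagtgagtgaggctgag
Cidec-202: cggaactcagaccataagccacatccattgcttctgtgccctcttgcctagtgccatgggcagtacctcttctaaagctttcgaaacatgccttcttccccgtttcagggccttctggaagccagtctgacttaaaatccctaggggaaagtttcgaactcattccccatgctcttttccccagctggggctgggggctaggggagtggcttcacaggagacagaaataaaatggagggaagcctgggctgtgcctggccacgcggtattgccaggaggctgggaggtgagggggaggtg
Cd36: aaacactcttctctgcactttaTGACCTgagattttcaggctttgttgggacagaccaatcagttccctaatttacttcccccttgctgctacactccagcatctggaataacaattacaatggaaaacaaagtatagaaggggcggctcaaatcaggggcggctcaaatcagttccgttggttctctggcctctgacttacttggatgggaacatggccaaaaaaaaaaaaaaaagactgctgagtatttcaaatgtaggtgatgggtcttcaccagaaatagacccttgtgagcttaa

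**Figure D2:**
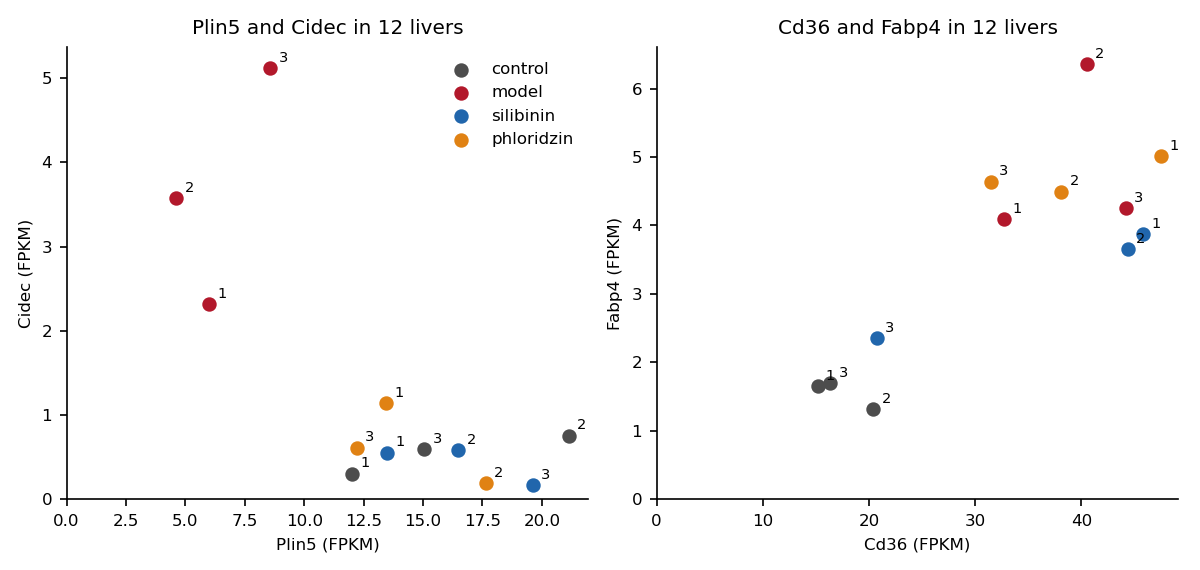
Left, Cidec against Plin5; right, Fabp4 against Cd36, both in FPKM with 1 point per liver, coloured by group and numbered by replicate. The 3 model livers lie apart at low Plin5 and high Cidec, and the 6 drug livers lie with the controls at higher Plin5 and at most 1.14 FPKM of Cidec; on the right the injured livers lie above the controls, silibinin liver 3 nearest to them.

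Cideb (chr14:55754050-55758458, minus strand), the CIDE gene of hepatocytes that also serves the loading of lipid onto very low density lipoprotein, was at 2.33, 2.59 and 2.19 FPKM in the control livers, 2.79, 1.06 and 1.22 in the model livers, 4.75, 4.42 and 3.06 with silibinin and 1.47, 4.45 and 2.41 with phloridzin. All silibinin livers were above all model and control livers, and the phloridzin livers spread over both ranges. The silibinin to model log2 fold change of 0.95 (SE 0.30, adjusted p = 0.058) missed the test, and those of model against control (-0.38, adjusted p = 0.35) and phloridzin against model (0.47, 0.35) did too. The gene sum mixes a coding transcript with a retained-intron transcript, Cideb-202, that made up 54.5% of it. The coding Cideb-201 was at 0.353, 0.837 and 0.926 FPKM in the control livers, at 0.069, 0.073 and 0.016 in the model livers, at 3.33, 2.41 and 2.08 with silibinin and at 0.339, 3.32 and 1.14 with phloridzin. It was lower in each model liver than in any other liver, at values near the floor. Both transcripts together rested on 209, 98 and 109 recovered fragments in the model livers. Nearly all of the level there was Cideb-202, so the coding values depend on how reads were split. With the members' coding transcripts alone, a choice made after seeing the data, silibinin against model was 1.76 (SE 0.34, adjusted p = 0.0079). On the same transcripts phloridzin against model was 1.14 (adjusted p = 0.054) and model against control -0.68 (0.15), neither DE. With only Cideb-202 standing for the gene, the higher of its transcripts, silibinin against model was -0.06 (adjusted p = 0.92). On the gene sum silibinin against model passed with median-ratio scaling (1.08, adjusted p = 0.041), with voom (1.69, 0.040) and without model liver 1 (1.23, 0.028). Cideb overlaps Nop9 on the other strand, and no strand setting is given in the sources used here, so reads of the 2 genes could be mixed.

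**Figure D3:**
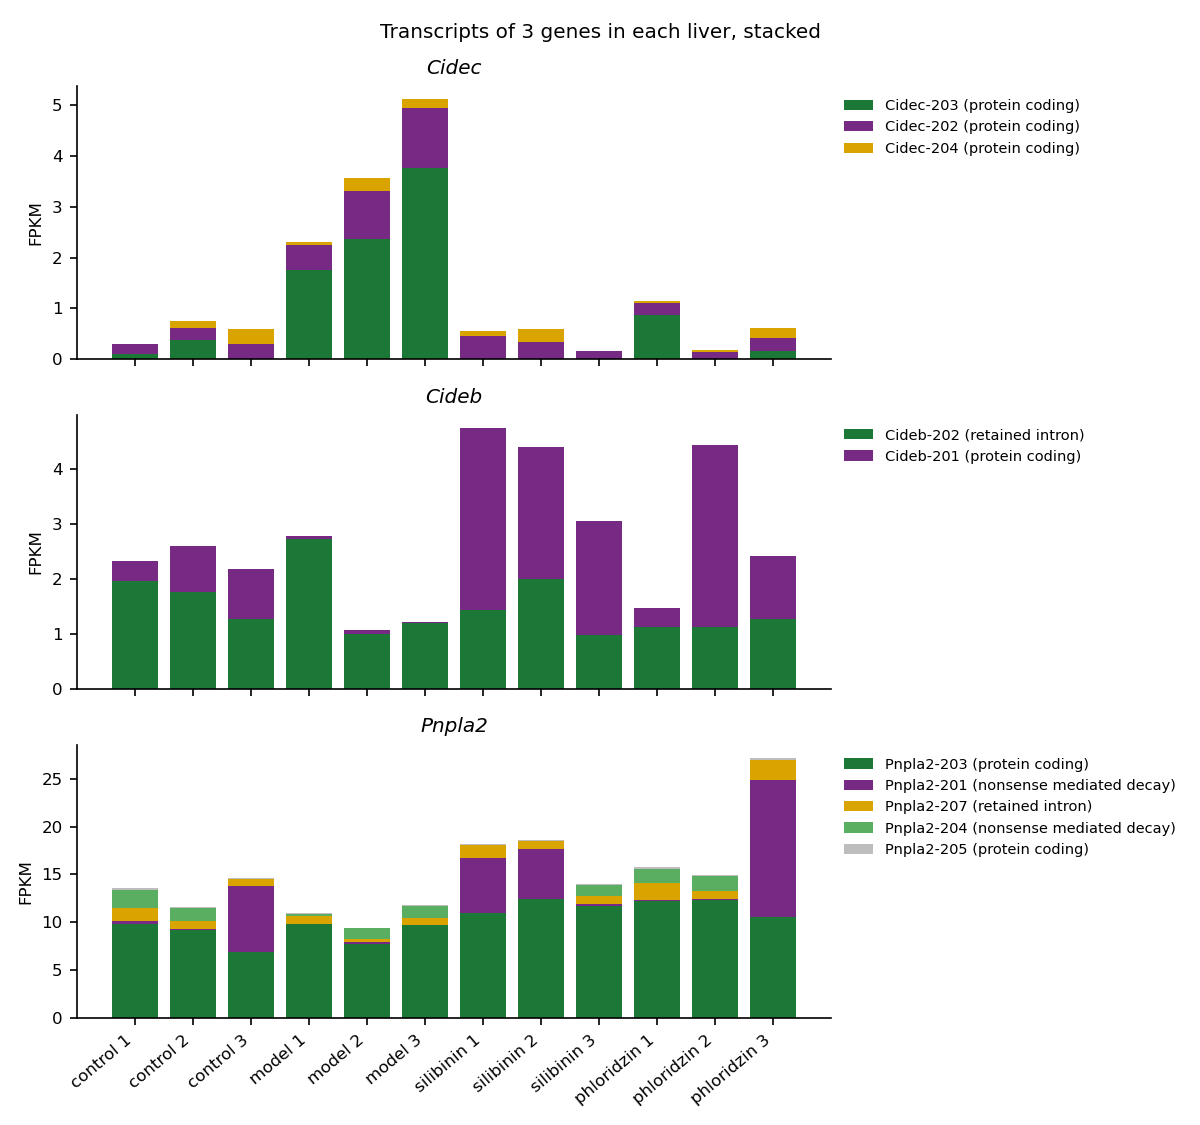
FPKM of each transcript of Cidec, Cideb and Pnpla2 in the 12 livers, stacked to the gene sum, with an axis from 0 for each gene. The coding Cideb-201 is at most 0.073 FPKM in the model livers and at least 2.08 with silibinin, and Pnpla2-201 is above 5 FPKM in 4 livers only.

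Lipolysis is set by Pnpla2, which encodes adipose triglyceride lipase, and by G0s2, a small protein that inhibits it. Pnpla2 (chr7:141455198-141460743, plus strand) was at 13.5, 11.6 and 14.7 FPKM in the control livers, 11.0, 9.43 and 11.8 in the model livers, 18.2, 18.6 and 14.0 with silibinin and 15.8, 15.0 and 27.2 with phloridzin. All 6 drug livers were above all 3 model livers, and model and control overlapped. Phloridzin against model had a log2 fold change of 0.75 (SE 0.21, interval 0.27 to 1.22, adjusted p = 0.044), under the fold cutoff, and silibinin against model 0.60 (SE 0.21, adjusted p = 0.087). Counting adjusted p alone, phloridzin against model had 3 of 10 members (12.9% of all genes) and silibinin against model 2 of 10 (14.1%). A transcript annotated for nonsense-mediated decay, Pnpla2-201, gave 14.4 FPKM of the sum in phloridzin liver 3, 6.89 in control liver 3, 5.77 and 5.29 in silibinin livers 1 and 2, and no more than 0.288 elsewhere. The main coding transcript Pnpla2-203 was at 9.83, 9.23 and 6.86 FPKM in the control livers and 9.85, 7.67 and 9.67 in the model livers. It was at 10.9, 12.4 and 11.7 with silibinin and 12.2, 12.3 and 10.6 with phloridzin, again above every model liver. On coding transcripts alone the model to control value turned from -0.28 to 0.06, neither past the test. The drug differences shrank there to 0.34 (adjusted p = 0.15) with silibinin and 0.35 (0.15) with phloridzin, so the adjusted p of the phloridzin comparison no longer passed. With median-ratio scaling of the gene sums model against control was -0.72 (adjusted p = 0.038), and silibinin against model was 0.80 (0.042) and phloridzin against model 0.91 (0.027), all under the fold cutoff.

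G0s2 (chr1:193272161-193273217, minus strand, overlapping Lamb3 on the other strand) was at 19.8, 32.6 and 31.9 FPKM in the control livers, 15.4, 3.56 and 14.3 in the model livers, 6.98, 20.8 and 17.7 with silibinin and 27.7, 9.32 and 8.18 with phloridzin. All model livers were below all control livers, while both drug groups spread across the 2 ranges. The model to control log2 fold change of -1.44 (SE 0.59, interval -2.74 to -0.15, adjusted p = 0.079) missed the test in FPKM and passed it with median-ratio scaling (-1.88, adjusted p = 0.034). Against the model group the values were 0.50 (interval -0.79 to 1.80) with silibinin and 0.41 (-0.88 to 1.71) with phloridzin.

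Cd36 and Fabp4 formed the other pattern, DE higher than control in the model and phloridzin groups in FPKM and not DE for silibinin against control. Cd36 (chr5:17781690-17888801, minus strand), a fatty acid translocase and scavenger receptor of hepatocytes, macrophages and capillary endothelium, was at 15.2, 20.4 and 16.4 FPKM in the control livers, 32.8, 40.5 and 44.2 in the model livers, 45.8, 44.4 and 20.7 with silibinin and 47.5, 38.1 and 31.5 with phloridzin. All injured livers were above all controls, silibinin liver 3 only just. Model against control was 2.26 times, with a log2 fold change of 1.13 (SE 0.28, interval 0.51 to 1.76, adjusted p = 0.011). Against the model group the values were -0.15 (interval -0.78 to 0.47) with silibinin and -0.01 (-0.64 to 0.61) with phloridzin. Against control, phloridzin was DE (1.12, adjusted p = 0.039) and silibinin was not (0.98, 0.074). Without silibinin liver 3, Cd36 was DE for silibinin against control as well. The phloridzin call was lost in 5 of the 6 fits that left out a control or phloridzin liver, all but the one without phloridzin liver 3.

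Fabp4 (chr3:10204088-10208576, minus strand), the binding protein of fat cells, macrophages and capillary endothelium, was at 1.65, 1.31 and 1.69 FPKM in the control livers, 4.09, 6.36 and 4.25 in the model livers, 3.87, 3.65 and 2.35 with silibinin and 5.01, 4.50 and 4.64 with phloridzin. The controls were the lowest, all silibinin livers lay between the controls and the model livers, and the phloridzin livers lay within the model range. The model mean was 3.16 times the control mean, a log2 fold change of 1.19 (SE 0.18, interval 0.79 to 1.60, adjusted p = 0.00096). Silibinin against model was -0.46 (interval -0.86 to -0.06, adjusted p = 0.12) and phloridzin against model -0.03 (-0.43 to 0.38). Against control, phloridzin was DE at 1.17 (adjusted p = 0.0067), a call that scaling ended (0.98, adjusted p = 0.013), and silibinin had an adjusted p of 0.046 at 0.73, under the fold cutoff. Fabp1 (chr6:71199827-71205023, plus strand), the abundant binding protein of hepatocytes and a classic PPAR alpha target, was at 139, 176 and 232 FPKM in the control livers, 135, 120.1 and 174 in the model livers, 279, 257 and 218 with silibinin and 301, 176 and 96.3 with phloridzin. All silibinin livers were above all model livers, and the phloridzin livers spread over 3 times in level. No comparison of Fabp1 passed the test, with log2 fold changes of -0.33 (adjusted p = 0.49) for model against control, 0.82 (0.15) for silibinin against model and 0.28 (0.65) for phloridzin against model.

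These are whole livers, so a different share of a cell type and a different level per cell cannot be told apart. Beside 9.42% of all genes, 6 of 6 markers of scar macrophages were DE higher in the model group (5 of 6 after median-ratio scaling). Their summed level was 19.4, 16.3 and 23.4 FPKM in the control livers, 108, 119 and 144 in the model livers, 120.1, 111 and 46.6 with silibinin and 144, 58.8 and 55.5 with phloridzin, with Spp1 the most abundant. Gpnmb had a log2 fold change of 4.73 and Trem2 of 2.78 in the model group. Of the general macrophage markers 1 of 8 was DE higher, Lyz2 at 2.16, beside 9.42% of all genes. By adjusted p alone it was 3 of 8, beside 34.9%, and voom called 2 of 8 higher, beside 2314 of 13150 genes. The sum of the 8 markers was 141, 247 and 202 FPKM in the control livers, 344, 557 and 462 in the model livers, 409.9, 536 and 386 with silibinin and 653, 629 and 346 with phloridzin.

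Of the stellate cell markers 3 of 8 were DE higher in the model group, beside 9.42% of all genes. These were Col1a1 at 4.35, Col3a1 at 3.75 and Lrat at 1.47, and Dcn was the most abundant marker of the list. The sum of the 8 stellate markers was 88.0, 79.7 and 92.6 FPKM in the control livers, 237, 235 and 271 in the model livers, 243, 277 and 133 with silibinin and 320.0, 191 and 169 with phloridzin. Silibinin liver 3 was the lowest of its group for these sums, for Cd36 and for Fabp4, and phloridzin liver 1 the highest of its group. Phloridzin livers 2 and 3 had scar macrophage sums of 58.8 and 55.5 FPKM, below every model liver. Their Fabp4, at 4.50 and 4.64 FPKM, lay within the model range. None of the scar macrophage or stellate markers was DE by limma between a drug group and the model group. At an unadjusted p under 0.05 there were 1 of 6 and 1 of 8 for silibinin and 2 of 6 and 2 of 8 for phloridzin, beside 29.2% and 27.8% of all genes. Of these, Lrat with phloridzin had an adjusted p of 0.015 at -0.83, under the fold cutoff. With voom 1 of 6 scar macrophage markers was DE lower with each drug and no stellate marker was. Endothelial markers gave 0 of 7 DE by limma and by voom in the model group (1 at an unadjusted p under 0.05, beside 45.8% of all genes), with sums of 61.4, 58.7 and 73.2 FPKM in the control and 68.7, 87.7 and 71.7 in the model livers, Clec4g leading. Their sums were 48.6, 84.8 and 33.6 with silibinin and 86.4, 94.8 and 65.6 with phloridzin. The part of these cells in the levels of Cd36 and Fabp4 was not tested.

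Fat cells were at the floor of detection. Of the 7 adipocyte markers 5 were in the table, Plin1, Lep, Cfd, Retn and Cidea. Their sum was at most 0.391 FPKM in any liver and none passed the filter. Adipoq and Ucp1 were not found among the gene symbols of the table. The 5 muscle markers were likewise too low to be tested, with a highest single value of 0.388 FPKM. Hepatocyte markers were abundant, with Alb the highest at a mean of 18400 FPKM, and 0 of 7 were DE in the model group by limma or voom. By adjusted p alone 1 of 7 was lower, Asgr1 (-0.43, adjusted p = 0.043), and the median of the 7 was 0.04 in FPKM and -0.44 after scaling. At an unadjusted p under 0.05 it was the same 1 of 7, beside 45.8% of all genes. Of the cholangiocyte markers 3 of 5 were tested and 1, Spp1, which is also on the scar macrophage list, was DE higher, beside 9.42% of all genes.

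**Figure D4:**
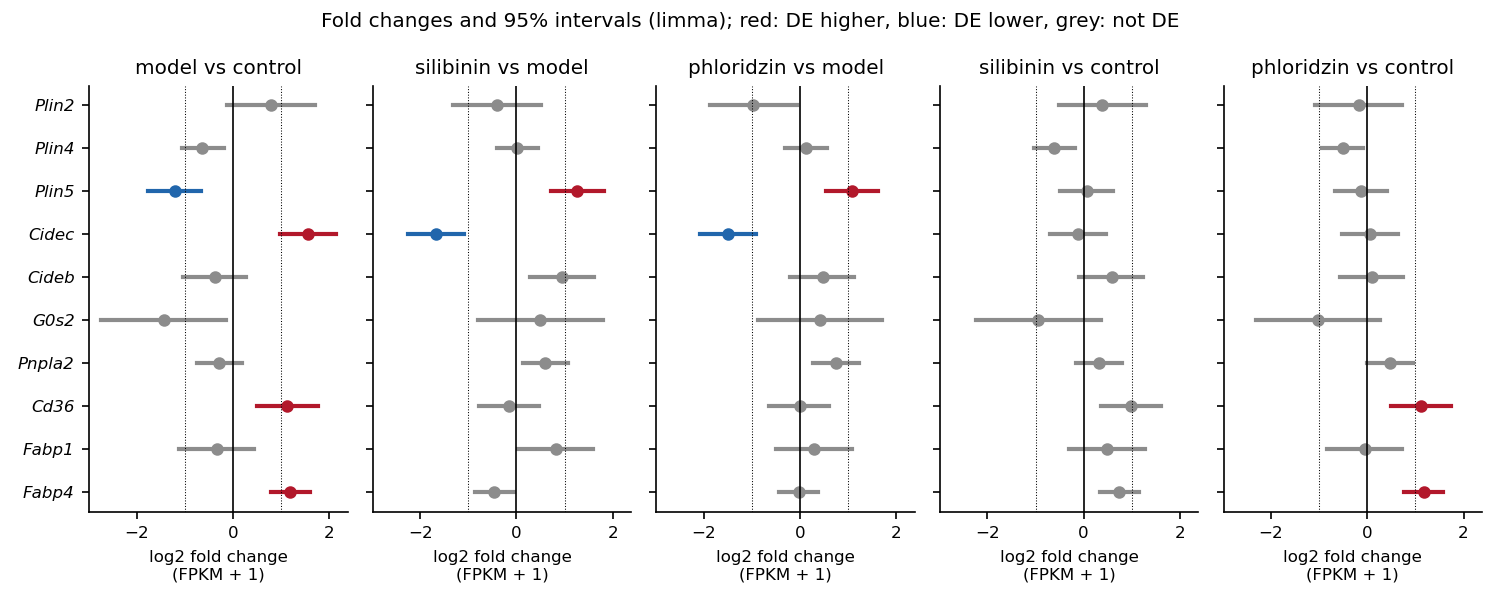
Log2 fold changes on the FPKM + 1 scale (points) with 95% intervals (lines) for the 10 genes in 5 comparisons; red is DE higher, blue DE lower, grey not DE, and dotted lines mark the fold cutoff. Plin5 and Cidec carry the calls against the model group, and Cd36 and Fabp4 those of phloridzin against control.

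The remaining comparisons asked how far the drug groups stood from control and from each other. Silibinin against control had 0 of 10 members DE by limma, beside 1.98% of all genes, and 3 at an unadjusted p under 0.05, beside 21.5%. By adjusted p alone limma gave 1 of 10, beside 5.02%. Voom called 1 of 10, Fabp4, where it called 643 of all 13150 genes higher and 45 lower. Phloridzin against control had 2 of 10 DE higher, Cd36 and Fabp4, beside 2.74% of all genes, and none lower, beside 0.289%. After median-ratio scaling neither was DE (Cd36 0.84, adjusted p = 0.073, and Fabp4 0.98, under the fold cutoff). By adjusted p alone these were the same 2 of 10, beside 7.99%. Between the drugs 0 of 10 members were DE by limma or voom, beside 0.0228% of all genes, and 1, Fabp4, had an unadjusted p under 0.05, beside 3.75%. Fabp4 was higher with phloridzin in all livers, a log2 fold change of 0.43 (interval 0.03 to 0.83, adjusted p = 1 by limma). The intervals of phloridzin against silibinin were -0.73 to 0.36 for Plin5, -0.41 to 0.75 for Cidec and -0.48 to 0.76 for Cd36, which leaves room for differences of moderate size.

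Groups without overlap were common in these data and say little by themselves. Of the 10 members, 6 did not overlap between model and control, beside 52.0% of all genes, 6 between silibinin and model, beside 36.7%, and 3 between phloridzin and model, beside 30.6%. Against control it was 4 of 10 for silibinin, beside 30.4%, and 3 of 10 for phloridzin, beside 29.8%. Between the drugs it was 1 of 10, beside 7.99%. The median log2 fold change of the 10 members was -0.31 for model against control, 0.26 for silibinin against model and 0.20 for phloridzin against model, where all genes had 0.34, -0.15 and -0.11. After median-ratio scaling the members had -0.71, 0.40 and 0.33, and all genes -0.01, 0.01 and 0.03.

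Across the 12 livers, as a description that includes the group differences, Cd36 and Fabp4 had a Pearson r of 0.87 on the log2 scale and Plin5 and Cidec one of -0.80. Cd36 and Plin5 had -0.33. Among genes with a mean of at least 5 FPKM, those most like Plin5 were Acad11 (r = 0.966), Pla2g12b (0.963) and Decr2 (0.961), and Acad11 and Decr2 act in fatty acid oxidation. Most like Cidec were Nme6 (0.982), Acbd3 (0.976) and Ppp1r14b (0.969). Most like Cd36 were Ppic (0.968), Snx6 (0.960) and Timp2 (0.959), the last an inhibitor of matrix metalloproteinases. Most like Fabp4 were Anxa1 (0.949), Sirpa (0.945), which is a receptor of macrophages, and Serpinh1 (0.940), the collagen chaperone.

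Other genes of the same pathways gave the setting. Among the other lipid droplet proteins and lipases, 15 of 17 were tested. In the model group 2 were DE higher and 1 lower, beside 9.42% and 1.08% of all genes. Hilpda, an inhibitor of adipose triglyceride lipase like G0s2, went from a mean of 1.58 to 9.65 FPKM, a log2 fold change of 2.06 (adjusted p = 0.00031). It was DE lower with silibinin (-1.73, adjusted p = 0.0017) and phloridzin (-1.76, adjusted p = 0.0016), at means of 2.22 and 2.19 FPKM. Pnpla3, a droplet lipase family member, was higher in the model group by 1.50 (adjusted p = 0.0044), and lower by values of -0.89 and -0.94 with the drugs that missed the test. Fitm1, which aids droplet budding, was DE lower in the model group, from 12.8 to 0.433 FPKM (-3.24, adjusted p = 1.9e-05). Fitm1 stayed DE lower than control with silibinin (0.859 FPKM, -2.86) and phloridzin (1.01 FPKM, -2.78). Hsd17b13, a hepatocyte droplet enzyme, was DE higher in phloridzin against control (1.01), a call lost after scaling (0.72, adjusted p = 0.087). Its means were 148 FPKM in the control livers, 292 with silibinin and 298 with phloridzin. The scaled value of silibinin against control was also 0.72 (adjusted p = 0.099), so the drug groups did not stand apart.

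Of the other genes of fatty acid uptake, binding and activation, 19 of 24 were tested. In the model group 4 were DE higher and 1 lower, beside 9.42% and 1.08% of all genes. Lpl, the lipase that frees fatty acids from lipoproteins, was at 22.6 FPKM against 3.27 (2.12, adjusted p = 0.013). The model livers were uneven for Lpl, at 5.185, 27.203 and 35.483 FPKM, and the control livers reached 3.694. Lpl stayed DE higher than control with silibinin (2.59) and phloridzin (2.02), the last no longer past the test after scaling (1.79, adjusted p = 0.080). Fabp5, a binding protein of macrophages and epithelia, had 1.78, and the acyl-CoA synthetases Acsl4 and Acsl3 had 1.18 and 1.08, calls that Acsl4 and Acsl3 lost to the fold cutoff after scaling (0.75 and 0.65). After scaling the calls of this list turned to 2 higher and 5 lower, with Acsl1 (-1.35), Slc27a1 (-1.21), Slc27a2 (-1.12) and Slc27a5 (-1.02), named after their values were seen, joining Angptl4. Angptl4, an inhibitor of Lpl and a PPAR target, was DE lower (-1.32, adjusted p = 0.0016) and also with phloridzin against control (-1.03). With voom none of the 19 was DE in phloridzin against control, neither Lpl nor Angptl4. None of the 19 was DE by limma between a drug group and the model group, though 8 with silibinin and 5 with phloridzin had an unadjusted p under 0.05 (29.2% and 27.8% of all genes did) and voom called 1 lower with silibinin. By adjusted p alone 3 of the 19 passed with each drug, beside 14.1% of all genes with silibinin and 12.9% with phloridzin. Acsl3 and Acsl4 were among them at folds short of the cutoff, -0.92 and -0.86 with silibinin and -0.63 and -0.79 with phloridzin. After scaling Acsl3 no longer passed with phloridzin (-0.46, adjusted p = 0.19).

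In triglyceride synthesis and export 12 of 15 genes were tested. The acyltransferase Gpat3 was the 1 gene DE higher in the model group (1.42, adjusted p = 0.0013), where 9.42% of all genes were. Gpat3 was DE lower with silibinin (-1.18, adjusted p = 0.0076) and phloridzin (-1.24, adjusted p = 0.0064). With silibinin the acyltransferase Agpat2 was DE higher (1.19) and the phosphatase Lpin3 DE lower (-1.01). After scaling Gpat3 kept its call only with phloridzin (-1.06), at 1.00 in the model group and -0.98 with silibinin, and Lpin3 lost it (-0.84). For model against control the scaled calls of this list were 0 higher and 2 lower, Agpat2 (-1.42, adjusted p = 0.0030) and, named after its value was seen, Dgat2 (-1.08, 0.0033). Of 12 PPAR receptors and partners, Mlxipl (1.42) and Srebf1 (1.08), transcription factors of lipid synthesis, were DE higher in the model group, beside 9.42% of all genes. Neither was DE after scaling (1.00 and 0.62). Scaling instead gave 2 of the 12 as DE lower, Rxra and Rxrg (both -1.05, adjusted p = 0.00095 and 0.0025), named after their values were seen. Srebf1 was DE lower with phloridzin (-1.18, adjusted p = 0.037), a call lost after scaling at a fold near the cutoff (adjusted p = 0.064). With silibinin none of the 12 was DE by limma, 6 had an unadjusted p under 0.05 (29.2% of all genes did) and voom called 1 higher, and with phloridzin voom called 1 higher and 1 lower. Ppara itself varied widely within groups, from 4.74 to 46.2 FPKM in the model livers, and had log2 fold changes of -0.22 for model against control, 1.11 for silibinin and 1.09 for phloridzin against model, none past the test (SE 0.75). Pparg had 0.38, -0.49 and -0.42, none past it.

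**Figure D5:**
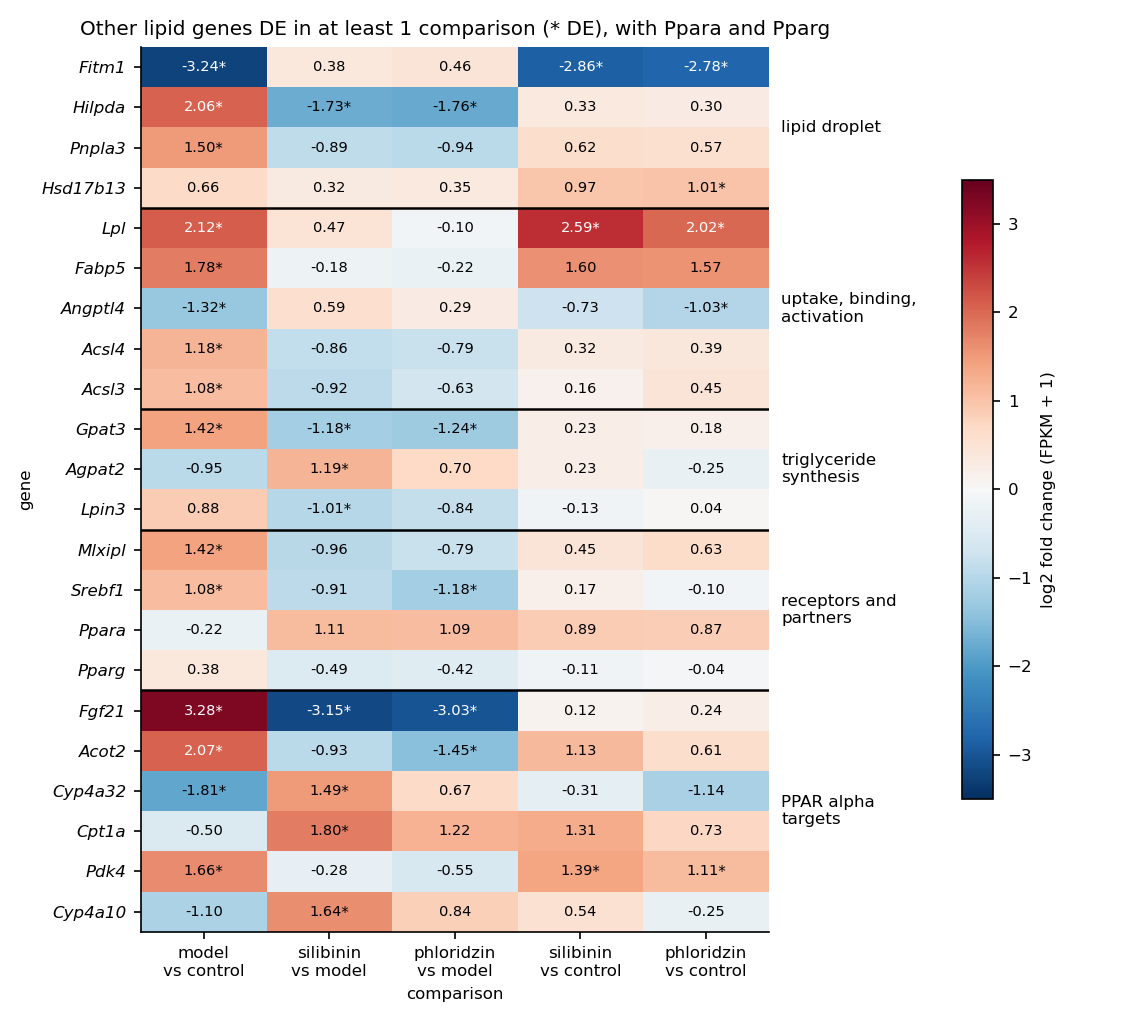
Log2 fold changes (FPKM + 1) of the other lipid genes that were DE in at least 1 comparison, up to 6 per list, with Ppara and Pparg; columns are comparisons, stars mark DE. Hilpda, Gpat3 and Fgf21 have the signs of Cidec, DE higher in model and DE lower with both drugs, while Fitm1 and Lpl differ from control in all 3 injured groups.

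The 26 other PPAR alpha targets had medians of -0.22 in model against control, 0.52 in silibinin against model and 0.34 in phloridzin against model, beside 0.34, -0.15 and -0.11 for all genes. In the model group 3 were DE higher and 1 lower, beside 9.42% and 1.08% of all genes. Median-ratio scaling gave 3 and 5, beside 501 and 481 of all 13113 genes. Fgf21, a fasting hormone of hepatocytes, went from a mean of 0.534 to 15.4 FPKM (3.28, adjusted p = 0.0016), and was DE lower with silibinin (-3.15) and phloridzin (-3.03). Pdk4, a brake on glucose oxidation, was DE higher in the model group (1.66, adjusted p = 0.00077), and with silibinin (1.39) and phloridzin (1.11) against control, the last under the fold cutoff after scaling (0.89). Acot2 was DE higher in the model group (2.07) and DE lower with phloridzin (-1.45), no longer past the test after scaling (-1.28, adjusted p = 0.059), and Cyp4a32 was DE lower in the model group (-1.81).

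Silibinin against model had 5 of the 26 targets DE higher, beside 0.745% of all genes. Cpt1a, the gate of mitochondrial fatty acid oxidation, had 1.80 (adjusted p = 0.020), with 24.7, 68.7 and 32.4 FPKM in the model livers, 109.8, 146 and 155 with silibinin and 85.7, 92.9 and 92.9 with phloridzin. Cyp4a10 (1.64), Cyp4a32 (1.49) and, named after their values were seen, Acot1 (1.40) and Cyp4a31 (1.37) were the others. The Cyp4a and Acot genes are closely related neighbours, so the split of reads among them is uncertain. Phloridzin against model had 0 of 26 DE higher and 2 lower by limma, beside 0.600% and 2.92% of all genes. By voom the counts were also 0 and 2. At an unadjusted p under 0.05, in either direction, there were 8 with phloridzin, beside 27.8% of all genes. With silibinin there were 15, beside 29.2%. After scaling 1 of the 26, Acot1, was DE higher in phloridzin against model (1.32, adjusted p = 0.041). In FPKM Cpt1a had 1.22 for phloridzin against model (adjusted p = 0.094), and 1.4 after scaling (0.084). The difference between the drugs was not past the test in FPKM (-0.58, adjusted p = 1).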

How the data were processed

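Total RNA of 12 livers, 3 in each of 4 groups, was sequenced on an Illumina NovaSeq. Per the submitters' processing notes, the authors made reads with bcl2fastq, checked them with FastQC 0.11.5, mapped them to mm10 with HISAT2 2.1.0 and assembled and measured transcripts with StringTie 1.3.3b. The deposited table gives FPKM for 169430 transcripts in each liver, 87294 of them without a gene symbol, and all of its sample columns were used. Whether the library keeps the strand is not stated in the sources used here. FPKM of transcripts with the same symbol were summed, giving 24296 genes. All 33 transcripts of the 10 genes have the same position in the GENCODE M21 annotation (GRCm38).

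Depth was read from the step between low FPKM values in transcripts of at least 3000 bases: 83.8 to 110.7 M fragments per liver, with at least 98.7% of low values at a whole number of fragments within 0.05. Multiplied back, the genes had as few as 27 fragments in a liver (Cidec), so single low values of Cidec, Cideb and Fabp4 are less precise than the others.

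Groups were taken from the labels. Genes with a mean of at least 0.5 FPKM were kept (13158), and log2(FPKM + 1) was fitted for all 12 livers together with limma 3.58.1 (trend) in R 4.3.3, with 6 comparisons: each injured group against control, each drug against model, and phloridzin against silibinin. P-values were adjusted by Benjamini-Hochberg over all genes tested in each comparison. DE means that the adjusted p is under 0.05 and the change exceeds 1 log2 unit either way. The pipeline was tested on simulated data with planted changes. Tables and figures were made with Python 3.11.15, pandas 2.3.3, numpy 2.4.6 and matplotlib 3.10.9.

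Alternatives were no fold cutoff, a pseudocount of 0.1, no filter, median-ratio scaling between livers, a fit of only the 2 groups compared, the replicate number as a block, the highest transcript per gene, Ensembl transcripts only, limma voom on the recovered fragments, and each liver left out in turn. Protein-coding transcripts of the 10 genes alone were added after seeing the data. The 10 genes and the lists beside them (other droplet proteins and lipases, other uptake genes, triglyceride synthesis and export, PPAR receptors and partners, other PPAR alpha targets, and markers of hepatocytes, adipocytes, endothelium, macrophages, scar macrophages, stellate cells, cholangiocytes and muscle) were chosen with earlier results of these data known. Of 154 list genes 151 were in the table. All 10 genes are named, and from each other lipid list up to 6 genes DE in any comparison, those with the largest change, with Ppara and Pparg. Other genes are named as the 3 most alike across livers by Pearson r among genes with a mean of at least 5 FPKM, or as markers. Promoters are RefSeq entries on GRCm38.p6, 300 bases each. Protein, lipid and histology data were not used here.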

Additional observations from a re-analysis of the deposited data

How the results depend on the processing

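Cidec kept its DE calls in all 3 comparisons with the model group under every alternative. Of the fold changes of single genes under the alternatives, 415 kept direction and side of the threshold, 8 passed it newly, 6 no longer passed it and 21 changed sign; of the counts of DE members, 79 stayed within 1.5 times and 17 did not. The count for phloridzin against model, 2, was 1 with only the 2 groups compared, and 1 to 3 with each liver left out. For silibinin against control, 0, it was 1 with no fold cutoff, a pseudocount of 0.1 or voom, and 0 to 1 with each liver left out. For phloridzin against control, 2, it was 1 with no filter, with only the 2 groups compared or with the highest transcript, 0 with median-ratio scaling, and 1 to 2 with each liver left out. Model against control gave 4 throughout with each liver left out, silibinin against model 2 to 3, and phloridzin against silibinin 0 throughout. With the replicate block the counts were 4, 2, 2, 0, 2 and 0, the same as without it. Livers of the same number in different groups had correlations of -0.09 to 0.10 after removing group means. Those of different numbers had -0.17 to 0.15. These values give no sign that the numbers pair the livers, but with 3 livers per group they cannot exclude it.

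Signs that changed were all of values not past the test. Pnpla2 in model against control was 0.07 with the highest transcript and 0.06 with coding transcripts only. With the highest transcript Cideb was -0.06 for silibinin and -0.22 for phloridzin against model, since that transcript is Cideb-202. Cd36 was 0.06 for silibinin and 0.17 for phloridzin against model with scaling, and 0.02 for phloridzin with voom. Fabp4 was 0.12 for phloridzin with scaling. With a liver left out, silibinin against model ranged from -0.02 to 0.06 for Plin4, -0.10 to 0.95 for G0s2 and -0.34 to 0.21 for Cd36. Phloridzin against model ranged from -0.05 to 0.29 for Plin4, -0.19 to 0.74 for G0s2, -0.16 to 0.13 for Cd36, -0.12 to 0.70 for Fabp1 and -0.12 to 0.14 for Fabp4. The cause was not tested except where stated.

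Totals over all genes moved more. Model against control had 1382 DE genes, 4594 with no fold cutoff, 2596 with a pseudocount of 0.1 and 2539 with voom. Silibinin against model had 526, 1849 with no fold cutoff and 795 with voom, and phloridzin against model 463, 1691 and, with a pseudocount of 0.1, 702. Silibinin against control had 261, from 117 with the highest transcript to 828 with a pseudocount of 0.1, and 101 to 381 with each liver left out. Phloridzin against control had 398, from 143 with only the 2 groups compared to 1103 with a pseudocount of 0.1, and 214 to 635 with each liver left out. With 3 livers per group and 27 to 504 fragments for Cidec, small differences cannot be seen.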
